A study of Mus musculus with 244 samples.

Results

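Integrins are adhesion receptors made of 1 α chain and 1 β chain, and 10 of their genes were followed through single macrophages of mouse atherosclerotic plaque. The 10 genes (Itgam, Itgax, Itgal, Itga4, Itga6, Itgav, Itgb1, Itgb2, Itgb5 and Itgb7) were chosen by symbol, as members of the integrin family, from the 24475 genes of the deposited RPKM table (reads scaled by transcript length and by the reads of the library). All 10 were found, and 16 further integrin chains in the table are summarised at the end. The study used a transplant model of plaque regression. For the regression group, aortic arches of Apoe-/- donors, which lack apolipoprotein E and had eaten a high fat diet for 16 weeks, were grafted into WT mice on chow and taken 3 days later. The baseline group is the arch of Apoe-/- mice after the same 16 weeks of high fat diet, without transplantation. Arches of both groups were digested, and cells carrying CD45, CD11b and F4/80 on their surface were sorted as macrophages, so the CD11b protein, the product of Itgam, was itself part of the gate in both groups. Host genotype, change of diet and surgery came together in the regression group and cannot be told apart. Whether a sorted cell came from the graft or the host was not tested.

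A library is a single cell here and animals are not named in the labels, which makes each group 1 sample. No test was made between the groups, every SD below is the spread over cells, and intervals of shares (95%, exact Clopper-Pearson) cover counting error only. There were 116 regression and 128 baseline libraries. In baseline, 3 pairs of libraries were near copies of each other (r of 0.992 to 0.997, against 0.654 for the highest other pair), and each pair was averaged. In regression, 3 cells listed under 1000 genes and were left out, which left 113 regression and 125 baseline cells. A gene is called listed in a cell at an RPKM of 1 or more. Regression cells listed a median of 2360 genes and baseline cells a median of 2491. The numbers in the sample titles run in 5 stretches, each of 1 group only: 1 to 20, 93 to 111 and 168 to 244 in regression (20, 18 and 75 cells), and 21 to 92 and 112 to 167 in baseline (69 and 56 cells). The sources used here do not say what a stretch stands for. Setting each regression stretch against each baseline stretch gives 6 pairings, which show whether a direction holds in every stretch. The regression stretch 93 to 111 listed the fewest genes, with a median of 1892, against 2399 to 2669 in the other regression stretches and 2457 and 2515 in the baseline stretches. Read depth could be worked out for 41 regression and 44 baseline libraries, and ran from 0.569 to 9.69 M reads in regression and from 0.505 to 8.12 M reads in baseline. At the median depth of 1.17 M reads, an RPKM of 1 stood for 3.15 reads of Itgb7 and for 11.5 reads of Itga4, so a gene that is not listed may still have some reads, and may still be expressed.

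As background, the β chain decides which family an integrin belongs to. Itgb2 encodes β2, the chain found only on leukocytes, which pairs with αM (Itgam, giving CD11b/CD18 or Mac-1, a receptor for ICAM-1, fibrinogen and the complement fragment iC3b), with αX (Itgax, giving CD11c/CD18) and with αL (Itgal, giving LFA-1, the receptor for ICAM proteins that leukocytes use to arrest and cross endothelium). Itgb1 encodes β1, the widely used partner of α4 (Itga4, giving VLA-4, which binds VCAM-1 and fibronectin), of α6 (Itga6, a laminin receptor) and of αV (Itgav). Itgb5 encodes β5, which pairs with αV and binds vitronectin, and Itgb7 encodes β7, which pairs with α4 to bind MAdCAM-1 of gut vessels. CD11b marks most myeloid cells, whereas CD11c is used in mice as a marker of dendritic cells and of some tissue and lipid-laden macrophages. A chain reaches the surface only with a partner, so the listing of both chains in 1 cell was counted as well as the level of each.

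Itgam and Itgax are neighbours. In GENCODE vM21 on mm10, Itgam lies at chr7:128062640-128118491 and Itgax at chr7:128129547-128150657, both on the plus strand, with 11056 bases between them. Itgal lies on the same chromosome and strand at chr7:127296260-127335138. For the neighbours Itgam and Itgax, the 250 bases before each start are shown, from RefSeq on GRCm38.p6, plus strand, 5′ to 3′. Capitals mark GAGGAA, 1 form of the letters that the myeloid factor PU.1 is known to bind, on either strand (TTCCTC on the opposite one). The first spans chr7:128062390-128062639 and the second chr7:128129300-128129549.
Itgam: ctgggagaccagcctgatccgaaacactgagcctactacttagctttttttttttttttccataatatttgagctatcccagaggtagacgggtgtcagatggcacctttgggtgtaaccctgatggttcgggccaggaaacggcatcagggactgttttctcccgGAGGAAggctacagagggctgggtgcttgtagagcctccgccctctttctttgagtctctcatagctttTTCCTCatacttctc
Itgax: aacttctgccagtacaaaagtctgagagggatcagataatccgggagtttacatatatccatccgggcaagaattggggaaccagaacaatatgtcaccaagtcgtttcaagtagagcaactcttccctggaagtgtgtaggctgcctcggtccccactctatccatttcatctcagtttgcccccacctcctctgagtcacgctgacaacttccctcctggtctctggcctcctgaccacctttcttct
The Itgam window held GAGGAA 84 bases before the start on the same strand and 15 bases before it on the opposite strand. It held it once more 32 bases after the start, in bases not printed. The Itgax window held no GAGGAA on either strand, while the shorter GGAA, which was not marked, does occur in it. Promoter windows, from 250 bases before to 50 after the start, were found for 7 of the 10 genes. Of these 7, those of Itgam, Itgav, Itgb1 and Itgb7 held at least 1 match, and 28.3% of all 32851 windows in the table did. A match is a description of letters and not a site, and its bearing on the differences between the groups was not tested.

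The β2 family held the 2 largest differences of the 10 genes, in opposite directions. Itgam was higher in regression and was listed in nearly every cell there, while Itgax was lower in regression and was listed in 15 of 113 cells, against 62 of 125 in baseline. Both directions held in all 6 pairings of stretches. Itgal was lower in regression in all 6 pairings too, by a smaller amount. Itgb2, their common partner, had no one direction over the pairings.

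Itgam was listed in 107 of 113 regression cells (94.7%, interval 88.8 to 98.0%) and in 102 of 125 baseline cells (81.6%, 73.7 to 88.0%). Its RPKM ran from 0 to 1915 with a median of 144 in regression cells, and from 0 to 1407 with a median of 40.4 in baseline cells, so the ranges overlapped almost wholly while the medians lay apart. On the log2(RPKM + 1) scale, the mean was 6.36 ± 2.56 (SD over 113 cells) in regression and 4.72 ± 2.77 (SD over 125 cells) in baseline, a difference of 1.64. The difference is smaller than the SD over cells of either group. By stretch, the mean was 7.61, 5.09 and 6.34 in regression stretches 1 to 20, 93 to 111 and 168 to 244, and 4.97 and 4.42 in baseline stretches 21 to 92 and 112 to 167. The lowest regression stretch was 93 to 111, the one with the fewest genes per cell, and it lay only 0.13 above the higher baseline stretch, whereas the largest pairing difference was 3.18. Part of the difference was in the level among cells that list the gene: in those cells alone the mean was 6.70 in regression and 5.73 in baseline. Although every cell was sorted with CD11b on its surface, 6 regression and 23 baseline cells did not list the transcript. For comparison, Ptprc, which encodes the sorted antigen CD45, was not listed in 6 regression and 7 baseline cells, and Adgre1, which encodes F4/80, in 22 regression and 11 baseline cells. What the gate on CD11b does to the difference was not tested.

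Itgax was listed in 15 of 113 regression cells (13.3%, interval 7.62 to 20.9%) and in 62 of 125 baseline cells (49.6%, 40.5 to 58.7%). These intervals do not meet, but they cover counting error over cells and no spread between animals. Its RPKM ran from 0 to 232 with a median of 0 in regression cells, and from 0 to 746 with a median of 0.91 in baseline cells. The mean of log2(RPKM + 1) was 0.66 ± 1.82 in regression (SD, n = 113 cells) and 2.45 ± 2.83 in baseline (SD, n = 125 cells), a difference of -1.79. Among the 10 genes Itgax had the narrowest range of pairing differences. Its mean was 0.49, 0.44 and 0.76 in the regression stretches and 2.49 and 2.39 in the baseline stretches, so that the 6 pairing differences ran only from -2.05 to -1.64. The listed share was 15.0%, 5.56% and 14.7% in the regression stretches and 50.7% and 48.2% in the baseline stretches. In contrast to Itgam, the level in cells that list Itgax hardly differed, with a mean of 4.74 ± 2.41 in 15 regression cells and 4.80 ± 2.25 in 62 baseline cells (SD). The difference of Itgax was therefore seen in how many cells list it. Listing itself depends on level and dropout, and whether fewer cells express Itgax or more fall under the threshold was not tested.

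**Figure D1:**
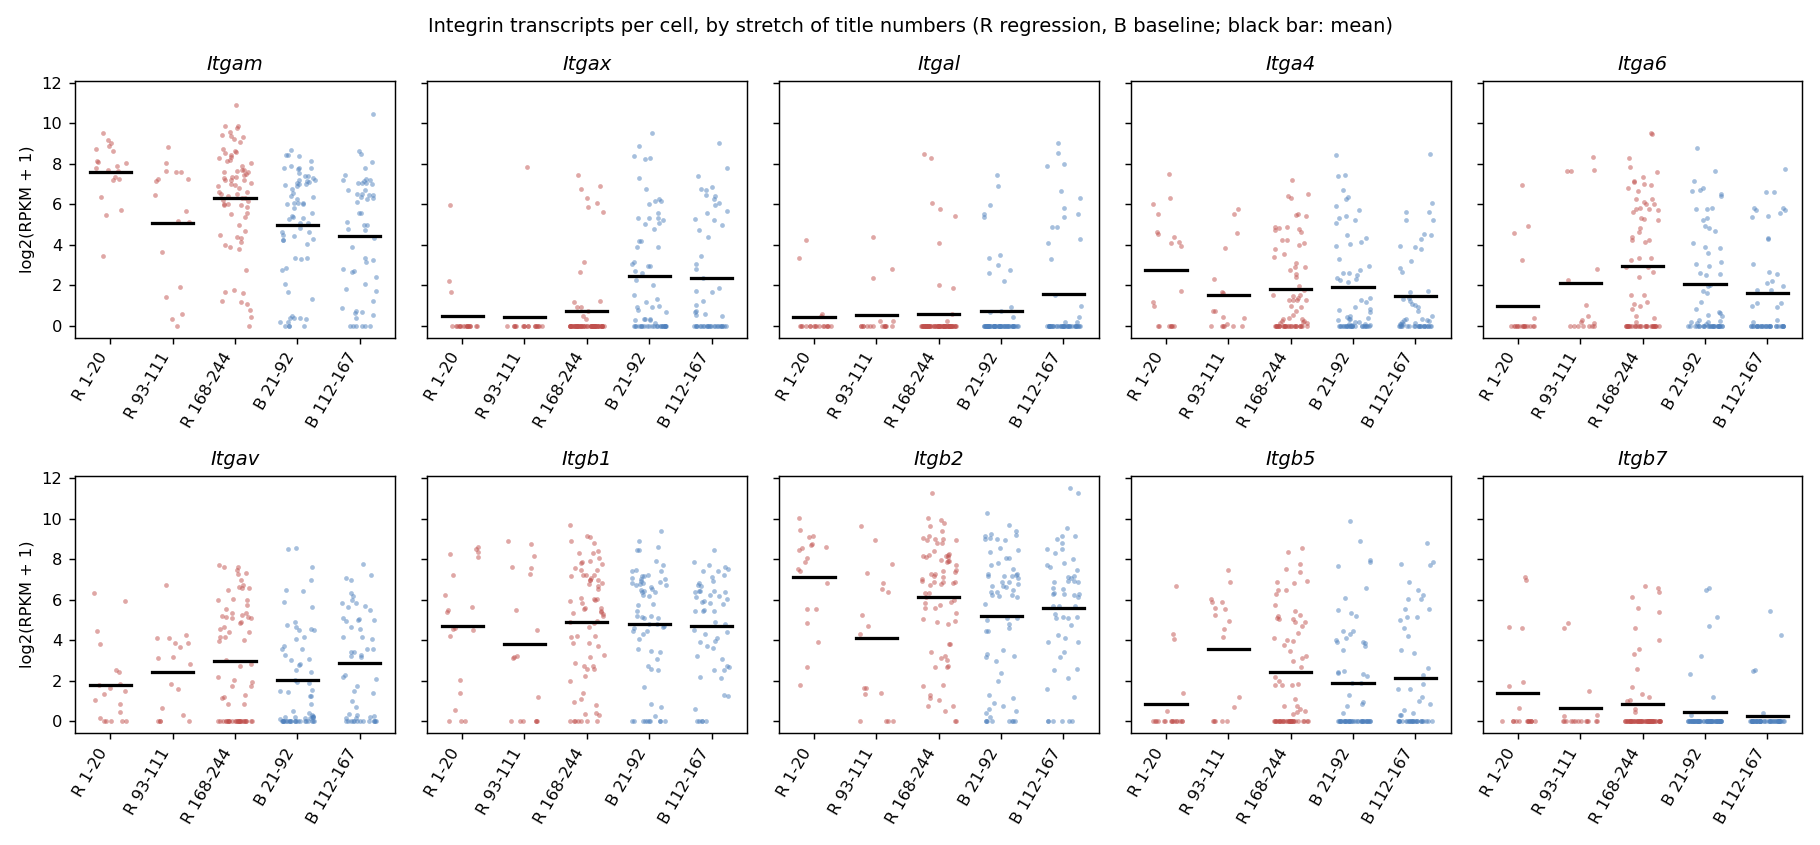
Level of each integrin transcript in each cell as log2(RPKM + 1) on the vertical axis, by stretch of title numbers on the horizontal axis, with regression stretches (R, red, left) and baseline stretches (B, blue, right). Each point is 1 cell and each black bar the mean of the stretch; the Itgax means of 0.49, 0.44 and 0.76 in regression lie under the baseline means of 2.49 and 2.39, and most regression points of Itgax lie at 0.

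Itgal was listed in 13 of 113 regression cells (11.5%, interval 6.27 to 18.9%) and in 26 of 125 baseline cells (20.8%, 14.1 to 29.0%), and these intervals overlap. The highest RPKM was 361 in regression and 519 in baseline, with a median of 0 in both groups. The mean of log2(RPKM + 1) was 0.55 ± 1.62 in regression and 1.12 ± 2.29 in baseline (SD over 113 and 125 cells), a difference of -0.57. The difference had the same sign in all 6 pairings, from -1.13 to -0.17, and was largest against baseline stretch 112 to 167, in which 15 of 56 cells listed Itgal.

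Itgb2 (chr10:77530252-77565708, plus strand) was listed in 104 of 113 regression cells (92.0%, interval 85.4 to 96.3%) and in 105 of 125 baseline cells (84.0%, 76.4 to 89.9%). Its RPKM had a median of 112 and a highest value of 2468 in regression cells, and a median of 75.1 and a highest value of 2921 in baseline cells. The mean of log2(RPKM + 1) was 5.97 ± 2.94 in regression and 5.36 ± 3.08 in baseline (SD over 113 and 125 cells), a difference of 0.61. The sign was not held by all stretches: 4 pairings were higher and 2 lower, from -1.49 to 1.95. Both lower pairings are those of regression stretch 93 to 111, with a mean of 4.09, against 7.13 and 6.11 in the other regression stretches and 5.18 and 5.57 in the baseline stretches. In the cells that list Itgb2 the mean was 6.47 in regression and 6.35 in baseline.

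The β1 family showed no such split. Itgb1 was the most even gene of the 10 between the groups, and its partners Itga4, Itga6 and Itgav differed by 0.60 or less in size on the log2 scale, with both signs among their pairings. Itgb1 (chr8:128685654-128733200, plus strand) was listed in 91 of 113 regression cells (80.5%) and in 106 of 125 baseline cells (84.8%), with a median RPKM of 39.4 in regression and 41.7 in baseline. Its mean of log2(RPKM + 1) was 4.69 ± 2.98 in regression and 4.76 ± 2.59 in baseline (SD over cells), a difference of -0.07 with 2 pairings higher and 4 lower.

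The 3 α chains lie on chromosome 2, plus strand, Itga4 at chr2:79255426-79333123, Itga6 at chr2:71745616-71858416 and Itgav at chr2:83724397-83806916. Itga4 was listed in 48.7% of regression and 41.6% of baseline cells, with a mean of log2(RPKM + 1) of 1.94 ± 2.22 in regression and 1.73 ± 2.29 in baseline (SD over cells) and 4 of 6 pairings higher. Itga6 was listed in 47.8% of regression and 43.2% of baseline cells, and its mean of 2.49 ± 2.99 in regression stood against 1.89 ± 2.48 in baseline on the same scale. That difference of 0.60 rested on 1 stretch: Itga6 was listed in 43 of 75 cells of regression stretch 168 to 244, with a mean of 2.97, but in only 4 of 20 cells of stretch 1 to 20, with a mean of 1.01. Without stretch 168 to 244 the difference was -0.35. Itgav was listed in 61.9% of regression and 56.0% of baseline cells and had a mean of log2(RPKM + 1) of 2.69 ± 2.55 in regression and 2.40 ± 2.49 in baseline, with 3 pairings higher and 3 lower. Within baseline alone, the mean of Itgav was 2.02 in stretch 21 to 92 and 2.86 in stretch 112 to 167, a gap larger than the difference of 0.29 between the groups.

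The partners of αV and α4 outside the β1 family, Itgb5 and Itgb7, differed from each other. Itgb5 (chr16:33829665-33949338, plus strand) was listed in 54 of 113 regression cells (47.8%) and 53 of 125 baseline cells (42.4%). Its mean of log2(RPKM + 1) was 2.33 ± 2.72 in regression and 2.01 ± 2.71 in baseline (SD over cells), and the difference of 0.32 had 4 pairings higher and 2 lower. Its listed share had the widest range of the 10 genes among regression stretches, with 4 of 20, 12 of 18 and 38 of 75 cells with means of log2(RPKM + 1) of 0.85, 3.56 and 2.43, around the baseline means of 1.90 and 2.15. Itgb7 (chr15:102215995-102231944, minus strand) was listed in 24 of 113 regression cells (21.2%, interval 14.1 to 29.9%) and 11 of 125 baseline cells (8.80%, 4.47 to 15.2%), and these intervals overlap slightly. Its highest RPKM was 138 in regression and 94.6 in baseline, with a median of 0 in both. The mean of log2(RPKM + 1) was 0.90 ± 1.91 in regression and 0.36 ± 1.25 in baseline (SD over cells), and the difference of 0.54 was positive in all 6 pairings, from 0.21 to 1.11. As with Itgax, the level in listing cells was alike, with a mean of 4.09 in 24 regression cells and 4.03 in 11 baseline cells.

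The order of the levels differed mainly by Itgax and Itgam. In regression the means of log2(RPKM + 1) ran, from high to low, Itgam, Itgb2, Itgb1, Itgav, Itga6, Itgb5, Itga4, Itgb7, Itgax and Itgal, and in baseline Itgb2, Itgb1, Itgam, Itgax, Itgav, Itgb5, Itga6, Itga4, Itgal and Itgb7. RPKM is per length, so levels of different genes can be set side by side. No gap between neighbours in either order was as large as the SD over cells of the genes on both sides of it. Itgax stood just above Itgav in baseline, and between Itgb7 and Itgal near the foot of the order in regression.

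**Figure D2:**
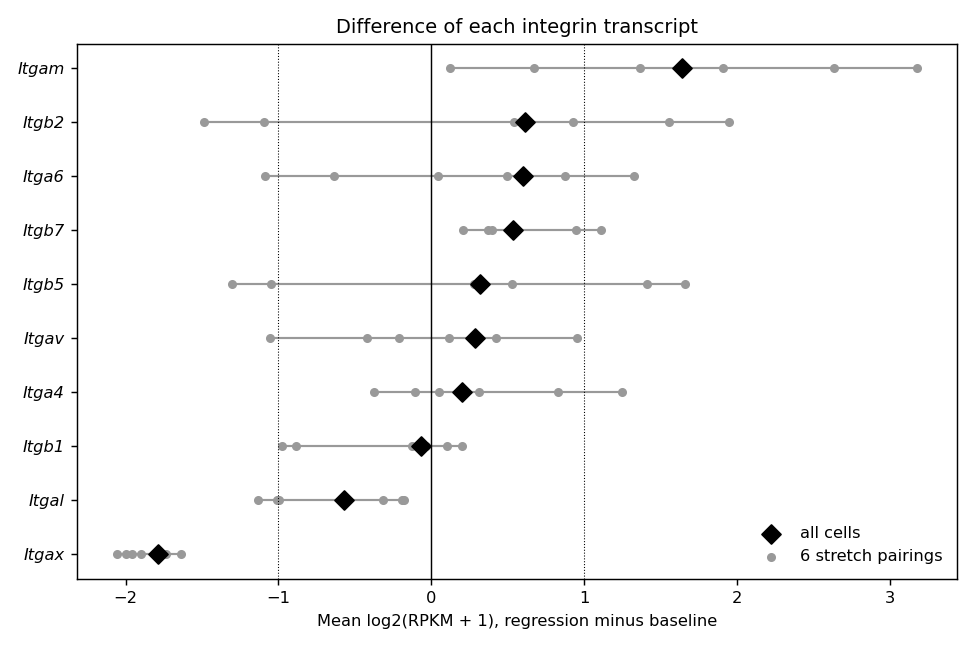
Difference in mean log2(RPKM + 1), regression minus baseline, for each of the 10 integrin genes on the horizontal axis, with the genes from the most positive at the top to the most negative at the bottom. Diamonds are all cells, grey points the 6 pairings of a regression with a baseline stretch, and dotted lines mark -1 and 1; Itgam (1.64) and Itgax (-1.79) lie past these lines, and the 6 pairings of Itgax stay between -2.05 and -1.64.

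To set these differences against the rest of the transcriptome, the 3946 genes that reached listing in 25% or more of regression or of baseline cells served as background. Of them, 5.6% differed by 1 or more and 7.37% by -1 or less. With the sign in 6 of 6 pairings also asked for, the shares were 4.18% and 6.11%. Of the integrins, 8 of 10 were in this background (Itgal and Itgb7 were listed in too few cells). Itgam was the only one at 1 or more and Itgax the only one at -1 or less, and both kept the sign in 6 of 6 pairings. A single sign over all 6 pairings, at any size, was held by 30.7% of background genes and by 2 of the 8 integrins in it, Itgam and Itgax. The median difference was 0.30 over the 10 integrins and -0.05 over the background, and the median absolute difference of the 8 integrins in the background was 0.46, against 0.39 over the whole background. As a group the integrins therefore lay near the background, and the results concern single chains.

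The α chains that can join β2 were also counted in combination in single cells. These shares carry the single-gene shares given above. What the single genes alone would give was not worked out, so the combinations are not a separate result on joint listing. Itgam was listed with neither Itgax nor Itgal in 88 of 113 regression cells (77.9%, interval 69.1 to 85.1%) and in 45 of 125 baseline cells (36.0%, 27.6 to 45.1%). The share was 80.0%, 72.2% and 78.7% in the regression stretches and 37.7% and 33.9% in the baseline stretches, so that every regression stretch lay above both baseline stretches. Itgam and Itgax were listed together without Itgal in 11 regression cells (9.73%, 4.96 to 16.7%) and 36 baseline cells (28.8%, 21.1 to 37.6%), and all 3 chains in 3 regression and 15 baseline cells. Itgax was listed alone in 0 of 113 regression cells, where 3 cells would be 2.65%, and in 8 of 125 baseline cells. None of the 3 α chains was listed in 1 regression cell and in 10 baseline cells. The Itgam level of cells with and without Itgax differed by less than the SD over cells: the mean log2(RPKM + 1) of Itgam was 6.13 in the 15 cells with Itgax and 6.40 in the 98 without it in regression, and 4.71 in the 62 cells with Itgax and 4.74 in the 63 without it in baseline.

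**Figure D3:**
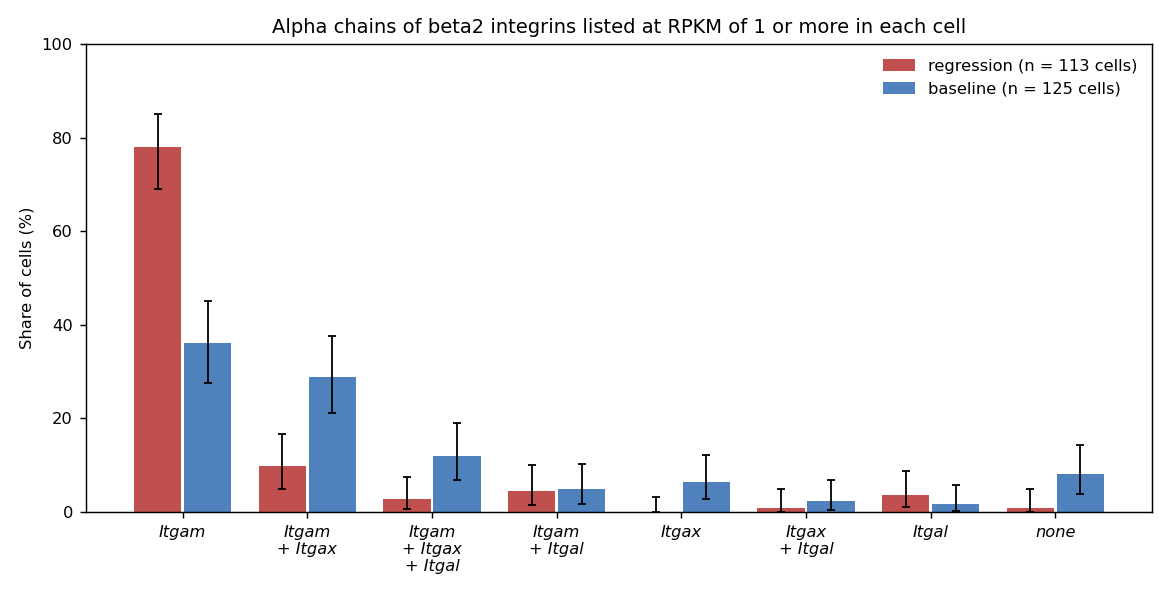
Share of cells (%) on the vertical axis for each combination of the β2 partners Itgam, Itgax and Itgal listed at an RPKM of 1 or more in the same cell, with regression (red, left, n = 113 cells) and baseline (blue, right, n = 125 cells) and exact 95% intervals. Cells with Itgam alone made up 77.9% of regression and 36.0% of baseline cells, and cells with Itgam and Itgax 9.73% of regression and 28.8% of baseline cells.

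Both chains of αMβ2 were listed in 99 of 113 regression cells (87.6%, interval 80.1 to 93.1%) and 88 of 125 baseline cells (70.4%, 61.6 to 78.2%). By stretch the share was 100%, 66.7% and 89.3% in regression and 68.1% and 73.2% in baseline, so regression stretch 93 to 111 lay below both baseline stretches. Both chains of αXβ2 were listed in 15 regression cells (13.3%) and 53 baseline cells (42.4%), with 15.0%, 5.56% and 14.7% in the regression stretches and 42.0% and 42.9% in the baseline stretches. All 15 regression cells with Itgax listed Itgb2, as did 53 of the 62 baseline cells with Itgax. Both chains of αLβ2 were listed in 9.73% of regression and 20.0% of baseline cells.

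Over all cells, the other pairs were closer between the groups, with α4β7 apart from the rest. Both chains of α4β1 were listed in 42.5% of regression and 39.2% of baseline cells, of α6β1 in 39.8% of regression and 36.8% of baseline cells, of αVβ1 in 51.3% of regression and 47.2% of baseline cells, and of αVβ5 in 33.6% of regression and 28.0% of baseline cells. Both chains of α4β7 were listed in 16 of 113 regression cells (14.2%, interval 8.31 to 22.0%) and 5 of 125 baseline cells (4.00%, 1.31 to 9.09%). In the stretches α4β7 ran 25.0%, 5.56% and 13.3% in regression and 7.25% and 0 of 56 cells in baseline, so the stretches of the groups overlapped. The share of α6β1 rested on 1 stretch: it was 20.0%, 16.7% and 50.7% in the regression stretches and 39.1% and 33.9% in the baseline stretches, and 18.4% of regression cells without stretch 168 to 244.

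**Figure D4:**
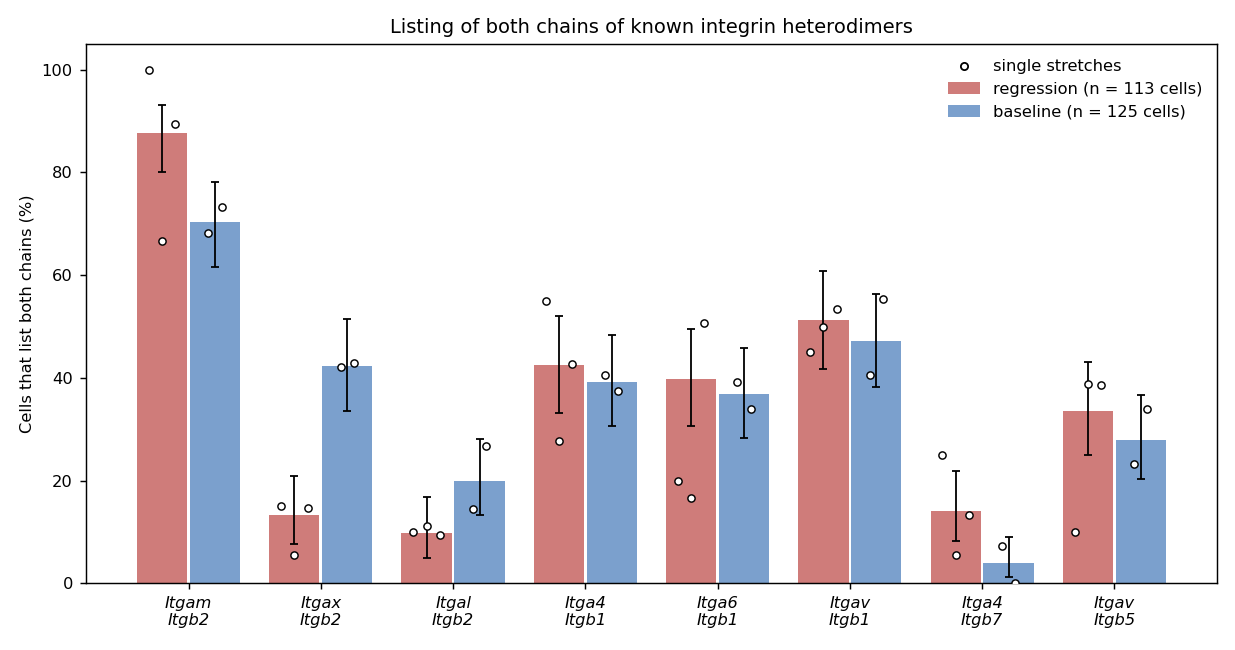
Share of cells (%) that list both chains of each of 8 known integrin pairs at an RPKM of 1 or more, with regression (red, left) and baseline (blue, right), exact 95% intervals and the single stretches as open circles. The pair of Itgam and Itgb2 stands at 87.6% of regression and 70.4% of baseline cells, and the pair of Itgax and Itgb2 at 13.3% of regression and 42.4% of baseline cells.

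A cell that lists more genes lists both chains of a pair more readily, so each pairing was also read against all background genes. For αVβ5, 54.3% of regression cells with Itgav listed Itgb5, and 37.2% of those without it, a gap of 17.1 points. In baseline these shares were 50.0% with Itgav and 32.7% without it, a gap of 17.3 points. The stretches of regression did not share this sign: the gap was -8.33, -25.0 and 32.0 points in stretches 1 to 20, 93 to 111 and 168 to 244, and 12.8 and 22.8 points in the baseline stretches. With each background gene in turn in place of Itgb5, the median gap was 5.68 points in regression and 6.49 points in baseline, and 11.3% of genes in regression and 11.9% in baseline had a gap at least as large. For α4β1 the gap was 13.1 points in regression and 16.2 points in baseline, against medians of 4.45 points in regression and 3.74 points in baseline. The gaps of α6β1 and αVβ1 lay from -1.17 to 6.11 points and did not exceed the median gap of their α chain by 1 point in either group. For αMβ2 the gap was 9.19 points in regression and 12.4 points in baseline, against medians of 9.97 points in regression and 5.29 points in baseline. The regression gap rests on only 6 cells without Itgam, of which 5 listed Itgb2. It was 13.3 and -6.94 points in regression stretches 93 to 111 and 168 to 244, and all cells of stretch 1 to 20 listed Itgam. In the baseline stretches it was 8.31 and 18.2 points. The gap of αLβ2 was -8.39 points in regression and 15.3 points in baseline, against medians of -0.85 points in regression and -3.81 points in baseline, and 3.98% of genes had a gap as large in baseline. The gap of α4β7 was 15.3 points in regression and 1.40 points in baseline, against the same medians as for α4β1. By stretch it was 29.2, -3.90 and 15.0 points in regression and 11.5 and -11.8 points in baseline. The gap of αXβ2 was 9.18 points in regression and 2.94 points in baseline, against medians of 6.80 points in regression and 2.53 points in baseline. By stretch it was 0, 23.5 and 7.81 points in regression and 6.39 and -0.77 points in baseline. All 15 regression cells with Itgax listed Itgb2, as did 90.8% of the others, so the regression gap was at its ceiling. Background genes listed in fewer cells have no such ceiling, so their median is a description only. The level of Itgam and that of Itgb2 varied together over regression cells (Spearman rho 0.43, n = 113), while rho was 0.07 over baseline cells (n = 125). Within regression the stretches differ in the level of both genes, and the cells of a group share library preparation and differ in depth, so these values are a description.

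Chains without a listed partner among the 10 genes were counted in turn. Of the cells with Itgb2, 1 of 104 in regression and 9 of 105 in baseline listed none of its 3 α chains. Of those with Itgb1, 9 of 91 in regression and 19 of 106 in baseline listed none of Itga4, Itga6 and Itgav. Itgb5 lacked Itgav in 16 of 54 regression and 18 of 53 baseline cells, and Itgb7 lacked Itga4 in 8 of 24 regression and 6 of 11 baseline cells. Dropout of a transcript cannot be told apart from its absence. It can strike the partner, which raises these counts, or the chain itself, which lowers them, so they are a description only. A cell listed a median of 5 of the 10 integrins in regression and 5 in baseline, with a range of 2 to 9 in both groups.

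The identity of the cells was checked with marker lists. At least 3 of 9 macrophage markers were listed in 112 of 113 regression and 124 of 125 baseline cells. The levels of these markers were not all alike. Of the 9, all in the background, 0 differed by 1 or more and 2 by -1 or less, beside 5.6% and 7.37% of the background. They were Adgre1, at -1.19, and Cd68, at -1.045, both lower in regression in 6 of 6 pairings. Markers of neighbouring myeloid types moved with the groups. At least 3 of 6 classical monocyte markers were listed in 31 regression and 21 baseline cells, and at least 3 of 6 nonclassical monocyte markers in 3 regression and 16 baseline cells. At least 3 of 7 neutrophil markers were listed in 22 regression and 5 baseline cells, although Ly6g, the defining one, was listed in no cell of either group, and Retnlg in no regression and 1 baseline cell. At least 3 of 8 conventional dendritic cell markers were listed in 0 regression and 5 baseline cells. The mean log2 summed RPKM of the list was 8.00 in regression and 6.22 in baseline for classical monocytes, 2.34 in regression and 4.42 in baseline for nonclassical monocytes, 4.14 in regression and 2.73 in baseline for neutrophils, and 0.75 in regression and 1.38 in baseline for dendritic cells. Without the 22 regression and 12 baseline cells that listed at least 3 markers of neutrophils, dendritic cells or another type outside macrophages and monocytes, the difference was 1.70 for Itgam and -1.63 for Itgax. The part of the monocyte markers in these differences was not tested.

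Some integrins were listed in the same cells as monocyte markers. At least 2 classical monocyte markers, such as Ccr2, the chemokine receptor through which these monocytes are recruited, were listed in 20 of 24 regression cells with Itgb7 and in 46 of 89 without it, and in 9 of 11 baseline cells with Itgb7 and in 34 of 114 without it. The gap was 31.7 points in regression and 52.0 points in baseline. With each background gene in place of Itgb7 the median gap was 4.93 points in regression and -4.23 points in baseline. A gap as large was found for 0.926% of genes in regression and 0 of 3790 in baseline. Background genes are listed in 25% or more of the cells of a group, and Itgb7 is not. A gap that rests on few listing cells varies more, so these shares do not measure how unusual Itgb7 is. The cells with Itgb7 were also the richer ones, with a median of 2802 listed genes against 2285 without it in regression, and 2955 against 2459 in baseline.

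Itgal went with the list of 6 nonclassical monocyte markers. Of the 6, Nr4a1 (43 regression and 68 baseline cells) and Spn (13 regression and 55 baseline cells) were listed most often. Treml4 was listed in 3 regression and 7 baseline cells. Which markers made up the count in a cell was not worked out. At least 2 of the 6 were listed in 3 of 13 regression cells with Itgal and in 6 of 100 without it. In baseline they were listed in 18 of 26 cells with Itgal and in 22 of 99 without it. The regression gap of 17.1 points was reached by 1.64% of 3783 background genes. The baseline gap of 47.0 points was reached by 0.0264% of 3792 background genes, of which the median gap was -1.19 points. Like Itgb7, Itgal is listed in too few cells to be in the background, so these shares of genes are a description only. Baseline cells with and without Itgal listed similar numbers of genes (medians of 2377 with it and 2530 without it). In baseline the cells with Itgal also listed at least 2 classical markers more often than the others, in 16 of 26 against 27 of 99 cells. For Itgax, at least 2 nonclassical markers were listed in 3 of 15 regression cells with it and in 6 of 98 without it, and in 21 of 62 baseline cells with it and in 19 of 63 without it. In regression, at least 2 classical markers were listed in 5 of 15 cells with Itgax and in 61 of 98 without it, and in baseline in 20 of 62 with Itgax and 23 of 63 without it. At least 2 dendritic cell markers were listed in 0 of 15 regression cells with Itgax and 1 of 98 without it, and in 9 of 62 baseline cells with Itgax and 3 of 63 without it, so most Itgax-listing cells of either group lacked them. All 15 regression and 61 of 62 baseline cells with Itgax listed at least 3 macrophage markers.

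**Figure D5:**
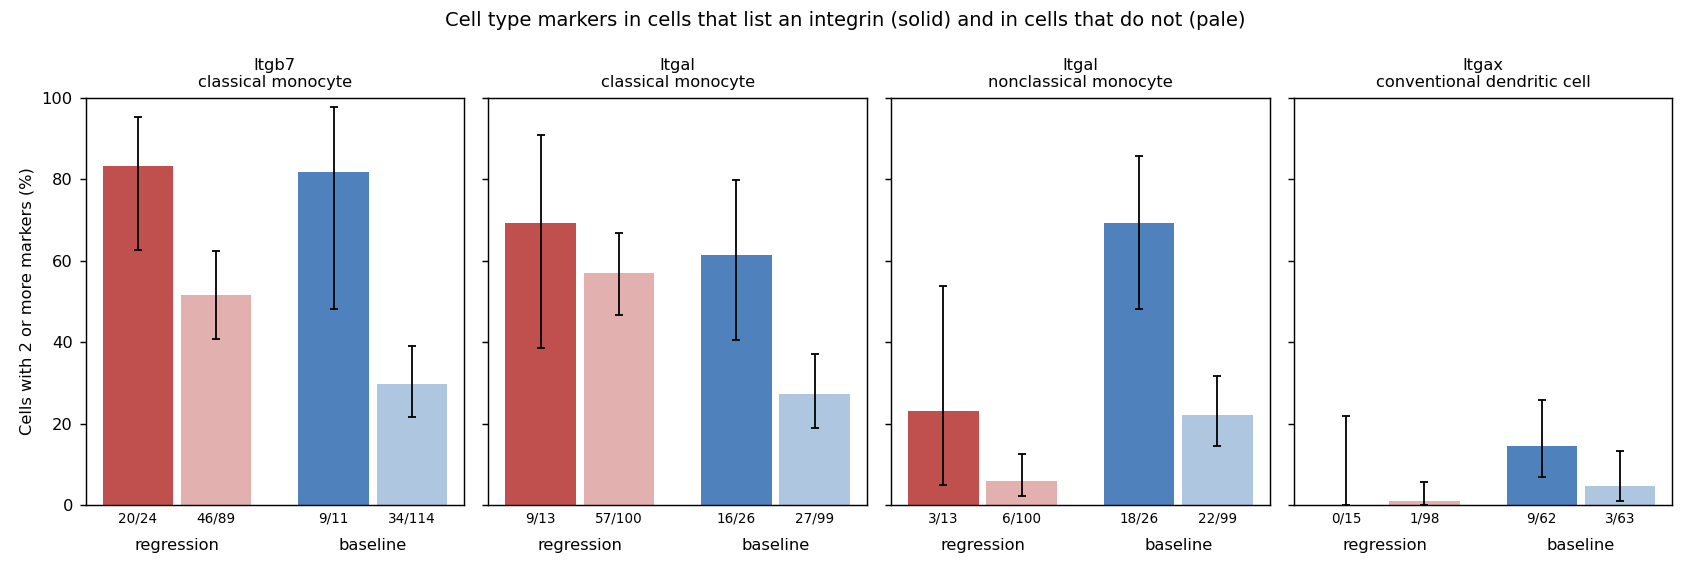
Share of cells (%) with at least 2 markers of the cell type named above each panel, in cells that list the integrin (solid) and cells that do not (pale), for regression (red, left) and baseline (blue, right), with exact 95% intervals and the cell counts under the bars. The Itgb7 panel shows 20 of 24 and 46 of 89 regression cells and 9 of 11 and 34 of 114 baseline cells, and the nonclassical Itgal panel has its highest bar at 18 of 26 baseline cells.

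The genes around the integrins were read from lists of activators, inhibitors, adhesion site proteins and ligands, as counts of members in the background. Of 8 activators, which switch integrins to their binding form, none differed by 1 or more in either direction. The 2 with the largest differences were Skap2, an adaptor on the way to β2 activation, at -0.89, and Rassf5 (RAPL), an effector of the GTPase Rap1, at -0.88, both lower in 6 of 6 pairings. Of 3 inhibitors, none reached a difference of 1. Flna, the actin crosslinker filamin A that competes with talin for β tails, differed by -0.45 with 5 of 6 pairings lower, and Sipa1, which inactivates Rap1, by 0.32 with 5 of 6 higher. Of 16 adhesion site adaptors and kinases, 0 differed by 1 or more and 2 by -1 or less, beside 5.6% and 7.37% of the background. They were Actn1 (α-actinin, which ties integrins to actin), listed in 18 of 113 regression and 59 of 125 baseline cells with a difference of -1.47, and Ptk2b (the kinase Pyk2), listed in 33 regression and 66 baseline cells with a difference of -1.08. Both were lower in 6 of 6 pairings.

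The largest differences in these lists were those of a pair of ligands. Of 25 ligands in the table, 5 were in the background. Of these 5, 3 differed by 1 or more and none by -1 or less, beside 5.6% and 7.37% of the background. Thbs1, C3 and F11r passed the filter of 25% only through the group in which they were higher. Thbs1, the matrix glycoprotein thrombospondin-1, was listed in 109 of 113 regression and 19 of 125 baseline cells, with a mean log2(RPKM + 1) of 7.95 in regression and 0.73 in baseline and a difference of 7.22. Fn1, fibronectin, a ligand of α4β1 and of αV integrins, was listed in 107 regression and 64 baseline cells, with a mean of 7.96 in regression and 2.65 in baseline and a difference of 5.32. Both were higher in 6 of 6 pairings. Spp1, osteopontin, also bound by αV and α4 integrins, had a difference of 1.03, but only 2 of its 6 pairings were higher, so its direction depended on the stretch. The remaining 2 were C3, the source of the αMβ2 ligand iC3b, at 0.88 with 6 of 6 pairings higher, and F11r (JAM-A, a ligand of LFA-1), at -0.64 with 6 of 6 lower. Under the filter, Icam2, an ICAM bound by LFA-1, was listed in 23 regression and 3 baseline cells, and Vcam1, the ligand of VLA-4, in 1 regression and 13 baseline cells, both named after their values were seen. With only 5 ligands past the filter, the count is not read as a result about ligands as a list.

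The 16 further integrin chains were rare, and none was in the background. Itga5, the α chain of the fibronectin receptor α5β1, was listed in 15 regression and 24 baseline cells, and Itga9 in 7 regression and 16 baseline cells. These were the only 2 listed in 5% or more of regression or of baseline cells. Itgad, one more α chain of β2, was listed in 4 regression and 4 baseline cells, and Itgae, the partner of β7 on tissue lymphocytes, in 1 regression and 4 baseline cells. Itgb3, the β3 chain that pairs with αV and with the platelet chain αIIb, was listed in 0 of 113 regression and 2 of 125 baseline cells, and Itga2b, which encodes that platelet chain, in no cell. Itga2, Itga7, Itga10, Itgb4, Itgb6 and Itgb8 were also listed in no cell, where 3 cells would be 2.65% of regression and 2.40% of baseline cells.

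For the 7 integrins listed in 25% or more of regression and also of baseline cells, the genes whose level was most like theirs were ranked among 2985 genes by the lower of the Spearman correlations over the 113 regression and the 125 baseline cells. All were weak. The highest values were 0.34 for Itgav with Spp1, 0.32 for Itga6 with Ms4a7, 0.31 for Itgb1 with Arl6ip1, 0.30 for Itgb5 with Pdpn, 0.29 for Itgb2 with Msrb1, 0.28 for Itga4 with Ifitm3 and 0.27 for Itgam with Aplp2. Next in rank came Eif4e3 and Pgam1 for Itgav, Lgmn and Rnase4 for Itga6, Grpel1 and Ikbkb for Itgb1, Cd93 for Itgb5, Rpl36al and Clec4e for Itgb2, Hip1 and Slc25a3 for Itga4, and Cd44 and Cfp for Itgam. The median over the 2985 genes lay between -0.02 and 0.02 for each integrin. Cells share library preparation and differ in depth, and these values are a description of likeness only.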

How the data were processed

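The authors deposited a single table of RPKM values for 244 single-cell libraries, made on the Fluidigm C1 with the SMARTer Ultra Low RNA and Nextera XT kits, per the labels' protocols. That protocol mentions islet cells, while tissue and cell type are labelled aortic arch and macrophage. The submitters' processing notes name the build mm10, CASAVA 1.8.2 and FastQC. An aligner and a program behind the RPKM values are not stated in the sources used here. SMARTer reads carry no molecular identifiers. The intervals are over numbers of cells and cover counting error only.

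Columns were matched to samples by the number in the title. Libraries correlating above 0.9 were averaged, and cells with at least 1000 genes at an RPKM of 1 or more were kept. A difference is the mean log2(RPKM + 1) in regression minus that in baseline, a scale that understates the change of low genes. With 1 sample a group, no test was made, and called means a difference of 1 or more, or of -1 or less. The background was all genes listed in 25% or more of regression or of baseline cells. Depth was worked out from the steps of low RPKM values in 5727 genes with 1 annotated transcript and kept where 3 estimates lay within 10% of each other, so for 85 of 244 libraries. Doublets were not called, since RPKM values fit no caller. The arithmetic alone was checked on simulated data, made from these cells with shuffled groups and known shifts. That check says nothing about dropout or stretches. Python 3.11.15 with numpy 2.4.6, pandas 2.3.3 and scipy 1.17.1 was used.

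The 10 members and all lists were chosen with earlier results of these data known. Beside the members, the genes named are the 2 of each list that differed most in size among those in the background and the 3 genes most like each member, of which 1 is not reported here; others are examples chosen after their values were seen. Exons of Itga4 overlap those of Cerkl on the opposite strand (listed in 3.69% of libraries), those of Itgam overlap Gm49368 on the same strand, and those of Itgav overlap Gm13684 on the opposite strand, and the sources used here do not say whether reads were counted by strand. The alternatives tried were other pseudocounts, listing thresholds, filters on genes and cells, rescaling of each cell, the log2 ratio of mean RPKM, near copies kept apart, cells with markers of other types left out, and each stretch left out in turn.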

Additional observations from a re-analysis of the deposited data

How the results depend on the processing

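Itgam (1.18 to 1.96) and Itgax (-3.07 to -0.80) kept the sign of their difference in 13 of 13 alternatives, as did Itgal, Itgb2 and Itgb7; Itga4, Itga6 and Itgb5 kept it in 12, Itgav in 11 and Itgb1 in 7. The Itgax difference was -3.07 with a pseudocount of 0.1, -0.80 with a pseudocount of 10, -2.22 as the log2 ratio of mean RPKM, -2.04 with each cell rescaled and -1.98 without cells 168 to 244. The number of members at -1 or less was 0 with a pseudocount of 10, 2 as the log2 ratio of mean RPKM (Itgal at -1.17) and 2 without cells 21 to 92 (Itgal at -1.02), against 1. The number at 1 or more was 3 as the log2 ratio (Itga6 at 1.16 and Itgb7 at 1.57 beside Itgam) and 2 in cells with at least 2000 genes (Itgb2 at 1.15 beside Itgam), against 1. The median difference of the members was -0.082 without cells 168 to 244, against 0.30. Both chains of αMβ2 were listed in 93.8% of regression and 82.4% of baseline cells at an RPKM of 0.1, and in 70.8% of regression and 50.4% of baseline cells at 10. Those of αXβ2 were listed in 53.6% of baseline cells at 0.1, and in 7.08% of regression and 25.6% of baseline cells at 10. The cause of these shifts was not tested, beyond what each setting does by construction. Of all alternatives, 120 of 130 member differences, 195 of 220 member shares, 149 of 176 pair shares and 33 of 39 summaries stayed within their spread. The spread was the SD over pairings for differences and their median, the exact interval for shares, and a fixed ratio for counts. Some shares could not move: leaving out a stretch of 1 group leaves the shares of the other group as they were. These counts therefore overstate how stable the shares are. With a background of genes listed in 5% of the cells of a group (9299 genes), 2.43% differed by 1 or more and 3.17% by -1 or less, and with any value above 0 (15608 genes) 1.45% and 1.89%. No paired analysis was possible because the groups share no title numbers and the labels name no animal. Shares of cells moved with the listing threshold, their relation to depth was not tested, and a group of 1 sample gives no spread between animals.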

Other observations

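Among pairs of integrins that are not known heterodimers, Itga6 and Itgav had a Spearman rho of 0.13 over 113 regression and 0.31 over 125 baseline cells, and Itgal and Itga4 had one of -0.16 over regression and 0.30 over baseline cells. Itgam and Itgb5 had a rho of -0.26 over regression and 0.07 over baseline cells. Among the β1 partners, Itga6 and Itgav without Itga4 was the most frequent combination, in 24 of 113 regression and 26 of 125 baseline cells, and none of the 3 was listed in 11 regression and 24 baseline cells. In the 3 regression cells left out for listing under 1000 genes, Itgb2 was listed in 3 and Itgam in 1, and the other 8 integrins in 0.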
